A study of Mus musculus with 8 samples.

Results

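The 10 genes described here, Batf3, Irf8, Zbtb46, Clec9a, Wdfy4, Tlr3, Xcr1, Xcl1, Flt3 and Flt3l, were chosen by name because they mark, build or attract the type 1 conventional dendritic cell, the cell that takes up dying cells and shows their antigens to CD8 T cells. They were found on the array as the probes whose gene name is 1 of the 10, and all 10 of them were present among 37074 gene names. They were carried by 19 of 56605 mouse probes, and 17 of these probes in 10 genes were bright enough to be tested, against 31683 tested probes in 21337 genes overall. The 8 arrays measured CT26 tumors, grown from 500000 cells of this mouse colon carcinoma line under the skin of female BALB/c mice aged 6 to 10 weeks. All mice carried the same tumor and were treated for 2 weeks, with vehicle, with TP-16 (75 mg/kg by mouth each day), with anti-PD-1 antibody (50 µg per mouse into the peritoneum, 2 doses a week), or with the combination of both agents at those doses. TP-16 is an antagonist of EP4, through which prostaglandin E2 acts on myeloid cells, and PD-1 is a brake on T cells that the antibody releases. Each group had 2 arrays, and no source used here says whether an array holds 1 tumor or a pool.

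Type 1 conventional dendritic cells arise from bone marrow progenitors that carry the receptor Flt3, and they need the transcription factors Irf8 and Batf3. In tumors, natural killer cells and T cells release Xcl1, the ligand of the receptor Xcr1 that these dendritic cells carry, as well as Flt3l, the ligand of Flt3. The cells use Clec9a to sense dead cells, Tlr3 to sense double-stranded RNA, and Wdfy4 to present antigen taken up from other cells. In RNA from whole tumor tissue, fewer cells of a type and less RNA per cell cannot be told apart.

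Under the combination, 8 of the 10 genes rose against vehicle, with a fold of 2 or more and a limma p of 0.05 or less after Benjamini-Hochberg adjustment over all tested probes, where 5.58% of all tested genes were called higher. The 8 were Batf3, Irf8, Zbtb46, Clec9a, Wdfy4, Tlr3, Xcl1 and Flt3. Xcr1 and Flt3l, the receptor for Xcl1 and the ligand of Flt3, were not called. In a limma fit of only the vehicle and combination arrays 0 of the 10 genes were called after adjustment, with adjusted p from 0.0661, and likewise 0 with the methods' t-test, where 0% of all tested genes were called in either. At an unadjusted p of 0.05 or less and a fold of 2 or more these gave 8 and 4 of the 10, where 6.28% and 2.72% of all tested genes were higher. Clec9a, Zbtb46 and Xcr1 were at background with vehicle and passed the filter on dim probes only through the treated arrays, so that their rise is in part fixed by that filter. Among the 7 genes well above background on all arrays 6 were called, where 5.46% of all such genes were called higher. The median change of the 10 genes was 1.60 on the log2 scale, or 1.51 with the genes at background in vehicle set to their bounds, and the median of all tested genes was -0.23. The vehicle arrays lay in columns 1 and 2 of row 1 of the slide and the combination arrays in columns 3 and 4 of row 2, so that position and treatment cannot be told apart. Each gene is given by its brightest tested probe, and its level on an array is the log2 intensity less that array's own 75th percentile. These levels are not comparable between genes, since each probe binds its target to its own extent.

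**Figure D1:**
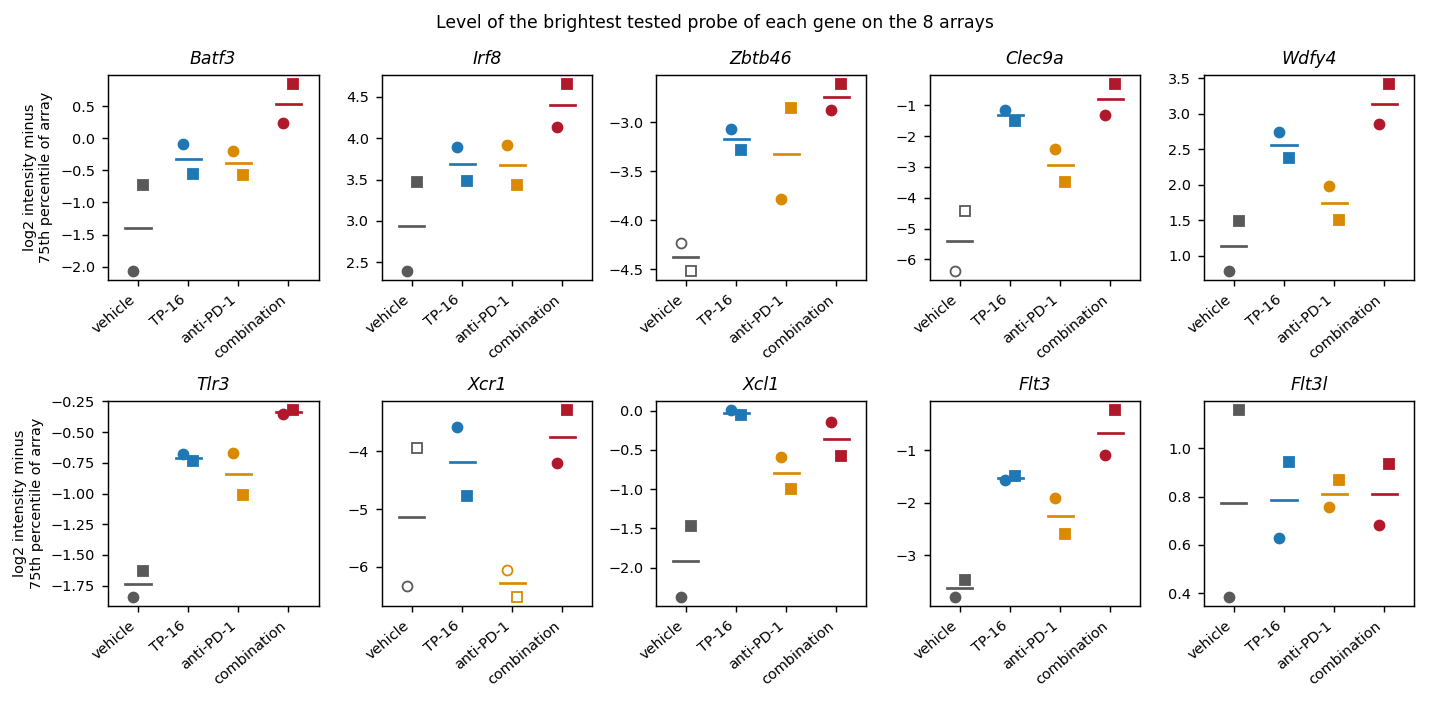
Level of the brightest tested probe of each gene (y axis, log2 intensity less the array's own 75th percentile) on the 8 arrays, by treatment group. Circles are replicate 1, squares replicate 2 and bars the group mean, and open symbols mark groups in which no array was well above background. Both combination arrays lie above both vehicle arrays in 8 of the 10 panels, the exceptions being Xcr1 and Flt3l, and in 23.3% of all tested genes.

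The same array was often at the edge. Vehicle replicate 1 was the lowest array for 8 of the 10 genes, against 15.3% of all tested genes, and combination replicate 2 was the highest for 8, against 17.0%. Vehicle replicate 1 was below replicate 2 for 9 of the 10 genes, against 56.2% of all tested genes. Without vehicle replicate 1, 6 genes were called for the combination, where 860 of all 21337 tested genes were called higher. Batf3, with a change of 1.28 in that fit (adjusted p = 0.0550 in limma), and Irf8, with 0.93 (adjusted p = 0.101), were not called. Without vehicle replicate 2, Zbtb46 lost its call (adjusted p = 0.0594 in limma) and Xcr1 gained it. Without combination replicate 1, Batf3, Irf8, Zbtb46 and Xcl1 lost their calls, with changes of 2.25 for Batf3, 1.73 for Irf8 and 1.34 for Xcl1. The share of all tested genes called in that fit was not counted, so this loss cannot be set against all genes. Without combination replicate 2, 0 of the 10 genes were called after adjustment in limma, with adjusted p between 0.0715 and 0.203 for the 8 genes, and 7 genes had an unadjusted p of 0.05 or less and a fold of 2 or more. That fit called 0 of all 21337 tested genes after adjustment, with 944 higher at the unadjusted p and fold. The 8 genes were still higher than in vehicle by 1.20 to 4.08 on the log2 scale in that fit.

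Among the transcription factors, Batf3 and Irf8 rose together. Batf3, a basic leucine zipper factor without which type 1 dendritic cells fail to form, had log2 levels of -2.06 and -0.73 with vehicle, -0.084 and -0.55 with TP-16, -0.19 and -0.57 with anti-PD-1, and 0.24 and 0.85 with the combination. The vehicle arrays were the lowest pair and the combination arrays the highest pair, and the groups of the single agents lay between them and overlapped each other. Batf3 rose by 1.94 on the log2 scale under the combination (standard error 0.47, limma adjusted p = 0.0301), a fold of 3.84. Its call was also lost without either anti-PD-1 array (limma adjusted p = 0.0542) and without combination replicate 1 (limma adjusted p = 0.0631). Under TP-16 alone it was 1.08 higher (limma adjusted p = 0.219) and under anti-PD-1 alone 1.02 higher (limma adjusted p = 0.384), and neither passed.

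Irf8, the interferon regulatory factor that partners Batf3, followed the same order. Its log2 levels were 2.40 and 3.47 with vehicle, 3.89 and 3.48 with TP-16, 3.92 and 3.44 with anti-PD-1, and 4.14 and 4.66 with the combination. Only vehicle replicate 1 stood clearly below the other arrays, and vehicle replicate 2 was level with the lower array of each single agent. Irf8 rose by 1.46 under the combination (standard error 0.41, limma adjusted p = 0.0421). Its call was lost with the replicate number as a block (limma adjusted p = 0.0614) and when any array other than vehicle replicate 2 was left out, with adjusted p between 0.0637 and 0.203 in limma. A dimmer probe of Irf8 gave nearly the same change, 1.48 (standard error 0.54), though its adjusted p in limma, 0.084, missed the threshold. Batf3 and Irf8 moved together from array to array, with a Pearson correlation of 0.995 over the 8 arrays, the highest of any pair of the 10 genes, in arrays that share the 4 treatment groups.

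The 250 bases before a RefSeq start of Batf3 and of Irf8 in the GRCm38.p6 build hold the letters TTCNNNGAA. This is the core of an interferon gamma activated site, to which Stat factors bind. Among the 10 genes only these 2 held it. Flt3, Clec9a, Wdfy4 and Tlr3, whose pairwise Pearson correlations were 0.908 to 0.965, held no match. Whether the motif bears on the change of any gene was not tested. Capitals mark matches to the motifs searched on either strand.
Batf3 promoter, chr1:191098164-191098413, plus strand: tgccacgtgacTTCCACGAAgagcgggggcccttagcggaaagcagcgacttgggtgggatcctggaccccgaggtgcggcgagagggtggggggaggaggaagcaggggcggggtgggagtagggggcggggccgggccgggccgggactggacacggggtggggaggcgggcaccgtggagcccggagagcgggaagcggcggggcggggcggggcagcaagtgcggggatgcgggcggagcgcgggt
Irf8 promoter, chr8:120736108-120736357, plus strand: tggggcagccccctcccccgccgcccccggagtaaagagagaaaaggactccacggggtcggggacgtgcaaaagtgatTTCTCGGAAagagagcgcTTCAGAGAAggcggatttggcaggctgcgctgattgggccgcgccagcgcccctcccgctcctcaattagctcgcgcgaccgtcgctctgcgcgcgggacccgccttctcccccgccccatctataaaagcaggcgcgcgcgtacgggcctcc
The Batf3 match begins 239 bases before the start, and the Irf8 promoter has matches that begin 171 and 153 bases before it. Of all 32851 promoter windows in the table, 7.02% held this motif, and 2 of the 11 windows of the 10 genes did. Irf8 has another listed start, at which the window held no match. A match of letters is a description of the sequence and not a measured site.

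Zbtb46, a zinc finger factor that marks conventional dendritic cells and their committed progenitors, had probes that disagreed, as did Tlr3. Its brightest probe (chromosome 2, 181122866 to 181122925, mm9 build) had log2 levels of -4.23 and -4.51 with vehicle, -3.07 and -3.28 with TP-16, -3.79 and -2.85 with anti-PD-1, and -2.88 and -2.61 with the combination. It was not well above background on either vehicle array and was so on all 6 treated arrays, which all lay above the vehicle arrays. The fitted rise under the combination was 1.63 (standard error 0.32, limma adjusted p = 0.0177). Because the vehicle level is only bounded, the combination was at least 2.31-fold higher. Such a bound is taken against the dimmest signals well above background on the arrays of the dimmer group.

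The other Zbtb46 probes did not follow it. The probes at 181145799 to 181145858 and at 181146404 to 181146463 were well above background on all 8 arrays and changed by -0.47 (standard error 0.18, limma adjusted p = 0.088) and -0.80 (standard error 0.32, limma adjusted p = 0.107). The probe at 181156431 to 181156490 was not well above background on any array and was not tested. Both probes that changed downward were assigned to 1 transcript by the array's design and the brightest probe to another, and which transcript each signal came from was not tested. With vehicle the brightest probe was the dimmest of the 3 tested, at a mean of -4.37 against -3.58 and -2.93, so that the treated arrays decided which probe stands for the gene. After quantile normalization the probe at 181145799 changed by 0.20 rather than -0.47, and the probe at 181146404 by -0.44 rather than -0.80. With normexp background correction the brightest probe changed by 0.21 (limma adjusted p = 0.21), so that the call for Zbtb46 rests on the choice of probe and on how dim signals are treated.

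The Zbtb46 promoter window is shown because it holds the letters TGANTCA, an AP-1 site, followed at once by TTTC, the composite that Batf proteins and interferon regulatory factors bind together.
Zbtb46 promoter, chr2:181424389-181424638, minus strand, GRCm38.p6: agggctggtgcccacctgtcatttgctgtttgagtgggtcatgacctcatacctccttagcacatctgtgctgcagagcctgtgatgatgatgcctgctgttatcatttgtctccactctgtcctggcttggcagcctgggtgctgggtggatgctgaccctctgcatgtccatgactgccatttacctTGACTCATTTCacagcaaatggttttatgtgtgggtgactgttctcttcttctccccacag
Zbtb46 probe at 181146404, minus strand, mm9: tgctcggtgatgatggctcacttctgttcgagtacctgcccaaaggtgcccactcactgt
The composite begins 61 bases before the listed start and was found in 33 of the 32851 windows (0.1%). Zbtb46 was the only 1 of the 10 genes to hold it. The window ends in a run of C and T followed by CAG, letters that also end introns. Whether transcription begins at this listed start, and so whether the window is a promoter, was not tested. TGANTCA alone, which the composite contains, was found in 6.75% of windows and in the same window of Zbtb46. The core of the interferon stimulated response element, GAAA and GAAA with any 2 bases between them, was found in 2.98% of windows and among the 10 genes in Flt3l, and the Ets and interferon factor composite, GGAA and GAAA with any 2 bases between them, in 2.3% of windows and in 0 of the 11 windows of the 10 genes.

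Clec9a, the receptor for actin exposed by dead cells and among the most restricted markers of type 1 dendritic cells, had the largest fitted change of the 10 genes. Its log2 levels were -6.36 and -4.43 with vehicle, -1.15 and -1.51 with TP-16, -2.41 and -3.48 with anti-PD-1, and -1.32 and -0.31 with the combination. Both vehicle arrays were not well above background, all 6 treated arrays were, and no array of TP-16 or the combination overlapped the anti-PD-1 arrays. The combination was at least 8.81-fold above vehicle (fitted change 4.59, standard error 0.72, limma adjusted p = 0.0123). TP-16 alone was at least 6.14-fold above vehicle (limma adjusted p = 0.0835) and anti-PD-1 alone at least 2.00-fold (limma adjusted p = 0.282). With normexp background correction the change was 1.90 (limma adjusted p = 0.00417), which is below the bound given here and below that of Wdfy4 in the same fit, 1.99. A nearby Clec9a probe, well above background on 7 arrays, rose by 3.50 under the combination (standard error 0.89, limma adjusted p = 0.034).

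Wdfy4, a BEACH domain protein needed by these cells to present antigen from other cells, was well above background on all arrays. Its log2 levels were 0.79 and 1.5 with vehicle, 2.75 and 2.38 with TP-16, 1.98 and 1.5 with anti-PD-1, and 2.86 and 3.42 with the combination. The combination and TP-16 arrays lay above all vehicle and anti-PD-1 arrays, and the lower anti-PD-1 array was level with the higher vehicle array. Wdfy4 rose by 1.99 under the combination (standard error 0.33, limma adjusted p = 0.0131), against 1.42 under TP-16 (limma adjusted p = 0.0958) and 0.59 under anti-PD-1 (limma adjusted p = 0.438).

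Tlr3, the endosomal receptor for double-stranded RNA, had the smallest standard error of the 10 genes. Its log2 levels were -1.84 and -1.63 with vehicle, -0.68 and -0.74 with TP-16, -0.67 and -1.01 with anti-PD-1, and -0.36 and -0.32 with the combination. All treated arrays lay above both vehicle arrays, and both combination arrays above all others. Tlr3 rose by 1.40 under the combination (standard error 0.15, limma adjusted p = 0.0108). A dimmer Tlr3 probe, well above background on all 8 arrays, changed by 0.26 (standard error 0.30, limma adjusted p = 0.535), so the probes of Tlr3 did not give the same result.

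**Figure D2:**
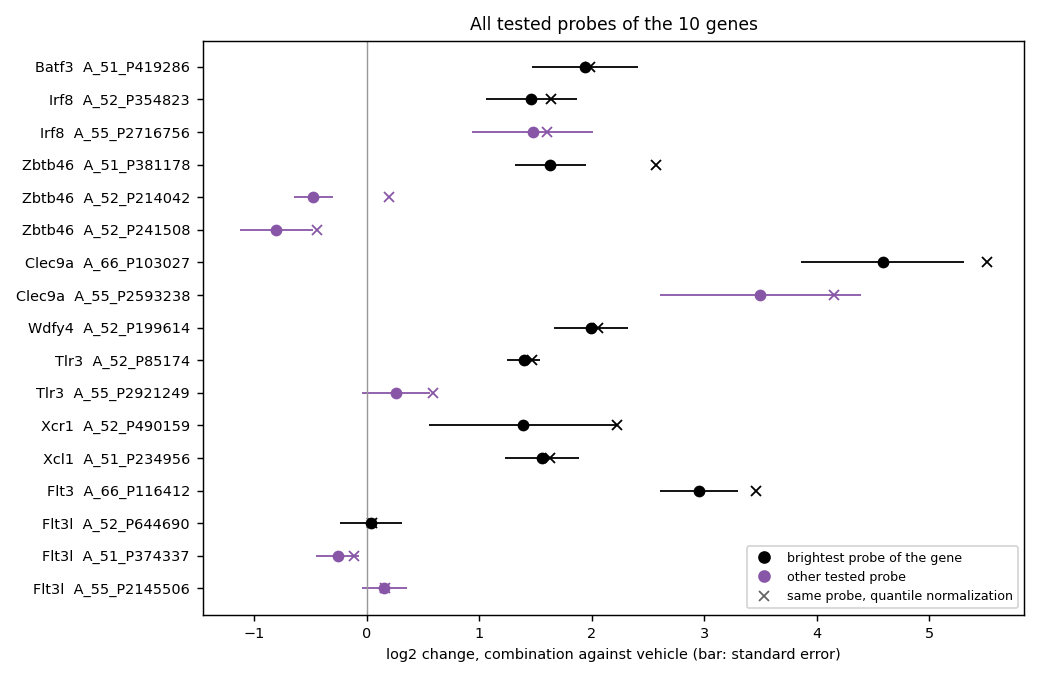
Log2 change between combination and vehicle (x axis) for each of the 17 tested probes of the 10 genes, with the standard error of the limma fit as bars, and the same probe after quantile normalization as crosses. Black points are the brightest probe of each gene and purple points its other tested probes: for Zbtb46 the other probes lie below 0 at -0.47 and -0.80 while the brightest lies at 1.63, and for Tlr3 the dimmer probe lies at 0.26 while the brightest lies at 1.40.

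The chemokine pair consists of Xcl1 and its receptor. Xcl1, a chemokine made by natural killer cells and CD8 T cells, had log2 levels of -2.37 and -1.47 with vehicle, 0.0043 and -0.060 with TP-16, -0.59 and -1.0 with anti-PD-1, and -0.14 and -0.58 with the combination. Every treated array lay above both vehicle arrays, and the TP-16 arrays lay highest. Xcl1 rose by 1.56 under the combination (standard error 0.33, limma adjusted p = 0.0216). TP-16 alone was 1.89 above vehicle (limma adjusted p = 0.0821) and anti-PD-1 alone 1.13 above it (limma adjusted p = 0.279). The combination was 0.33 below TP-16 on the log2 scale (limma adjusted p = 0.603). Both combination arrays lay below both TP-16 arrays, and the difference was not called. The probe that carries these Xcl1 values reads bases 166862020 to 166862079 of chromosome 1 in mm9.
Xcl1 probe, minus strand: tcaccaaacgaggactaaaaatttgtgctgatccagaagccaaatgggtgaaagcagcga

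Xcr1, the receptor for Xcl1 and found in the mouse almost only on type 1 dendritic cells, was near the limit of detection. Its log2 levels were -6.33 and -3.96 with vehicle, -3.58 and -4.78 with TP-16, -6.04 and -6.52 with anti-PD-1, and -4.20 and -3.29 with the combination. It was well above background on both TP-16 and both combination arrays and on no vehicle or anti-PD-1 array, although vehicle replicate 2 lay within the range of the TP-16 and combination arrays. The combination was at least 1.15-fold above vehicle (fitted change 1.39, standard error 0.84, limma adjusted p = 0.242) and at least 1.28-fold above anti-PD-1 (fitted change 2.53, limma adjusted p = 0.143). The change rested on the vehicle arrays, with 0.21 when replicate 1 was left out (limma adjusted p = 0.822) and 2.58 when replicate 2 was (limma adjusted p = 0.0479). The scaling mattered as well, as the change against vehicle was 2.23 after quantile normalization (limma adjusted p = 0.0438) and -0.12 with normexp background correction.

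The growth factor pair split into a receptor that moved and a ligand that did not pass. Flt3, the receptor tyrosine kinase of dendritic cell progenitors and of conventional dendritic cells, had log2 levels of -3.79 and -3.47 with vehicle, -1.56 and -1.49 with TP-16, -1.91 and -2.59 with anti-PD-1, and -1.1 and -0.24 with the combination. The 4 groups did not overlap and ran in the order vehicle, anti-PD-1, TP-16 and combination. Flt3 rose by 2.96 under the combination (standard error 0.35, limma adjusted p = 0.0108), a fold of 7.77. It was 2.10 above vehicle under TP-16 (limma adjusted p = 0.0795) and 1.38 above it under anti-PD-1 (limma adjusted p = 0.260). Another Flt3 probe was at background on all 8 arrays and was not tested.

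Flt3l, the ligand of Flt3, had log2 levels of 0.39 and 1.16 with vehicle, 0.63 and 0.94 with TP-16, 0.76 and 0.87 with anti-PD-1, and 0.68 and 0.94 with the combination. The vehicle arrays enclosed all 6 treated arrays. The change under the combination was 0.038 (standard error 0.27, limma adjusted p = 0.926), and the dimmer probes of Flt3l changed by 0.16 and -0.26, neither of which passed. The sign of the change depended on the vehicle array, with -0.35 when vehicle replicate 1 was left out.

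Against vehicle, the single agents were called for 0 of the 10 genes after adjustment in limma, where 0.0562% (TP-16) and 0.075% (anti-PD-1) of all tested genes were called in either direction. An unadjusted p of at most 0.05 was reached by 6 genes for TP-16, against 27.3% of all tested genes, and by 5 for anti-PD-1, against 15.1%. The methods' t-test gave 0 genes for both after adjustment, whereas for TP-16 limma called 2 genes after quantile normalization, 3 with normexp background correction and 4 with trended robust moderation, where 0.422%, 1.82% and 1.13% of all tested genes were called. With a fold of 2 or more and an unadjusted p of 0.05 or less, the threshold of the study's methods, limma called 6 genes higher for TP-16 (Zbtb46, Clec9a, Wdfy4, Tlr3, Xcl1 and Flt3), where 1.56% of all tested genes were higher. It called 4 genes higher for anti-PD-1 (Zbtb46, Clec9a, Xcl1 and Flt3) against 1.9% of all genes, and 8 for the combination against 6.68%. At that threshold the methods' own t-test called 4 genes under the combination, 3 under TP-16 and 0 under anti-PD-1, against 2.72%, 0.323% and 0.389% of all genes, and limma with normexp called 3 under TP-16 (0.881% of all genes) and 0 under anti-PD-1 (1.02%). Zbtb46 enters the counts of the single agents by its fitted change, while its bound against vehicle was at least 1.71-fold for TP-16 and at least 1.55-fold for anti-PD-1, under the fold of 2. Among probes well above background on all arrays, the combination gave 6 genes at this threshold, TP-16 gave 4 and anti-PD-1 gave 2, where 5.93%, 1.31% and 1.58% of all such genes were higher. The median change of the 10 genes was 1.14 for TP-16, where the median of all genes was -0.15, and 0.95 for anti-PD-1, where it was -0.096. These comparisons share the vehicle arrays. Quantile normalization moved the median change of all tested probes under the combination from -0.20 to -0.012. At the threshold of the methods 9.54% of all genes were then higher and 5.18% lower, against 6.68% and 10.2% before, and 9 of the 10 genes were called after adjustment, with Xcr1 added, where 7.47% of all genes were called higher. Normexp background correction gave 7, where 3.84% were.

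**Figure D3:**
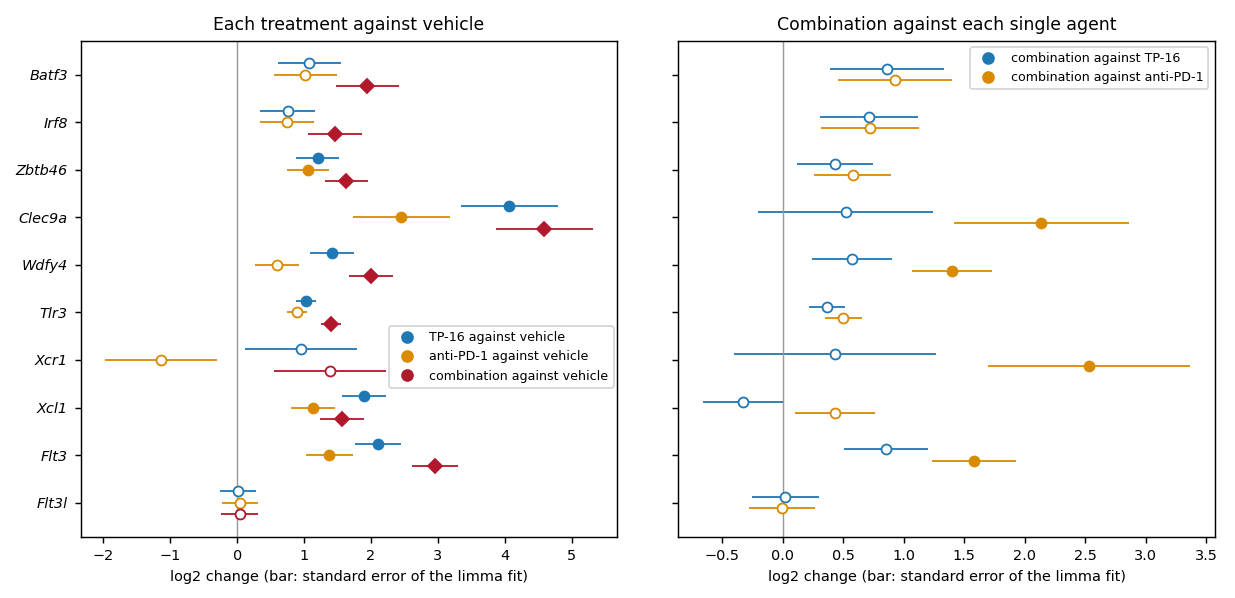
Log2 change of the brightest tested probe of each gene (x axis, bars show the standard error of the limma fit), against vehicle on the left and between the combination and each single agent on the right. Diamonds passed adjusted p and a fold of 2, filled circles an unadjusted p of 0.05 or less and a fold of 2, and open circles neither: 8 genes carry diamonds for the combination, and Flt3l stays near 0 throughout.

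The treated groups were also set against each other. The combination differed from TP-16 in 0 of the 10 genes after adjustment in limma (0% of all genes), with 1 gene, Flt3, at an unadjusted p of 0.05 or less, against 23.3% of all genes, and the methods' t-test gave 0 genes both after adjustment (0% of all genes) and at the threshold of the methods (1.4% of all genes higher). In limma 0 genes at that threshold were higher than under TP-16, where 4.02% of all genes were, and the median of the 10 genes was 0.48 against -0.088 over all genes. Flt3 came nearest, with 0.86 (standard error 0.35, limma adjusted p = 0.228). Against anti-PD-1, 0 genes passed adjustment in limma (0.0141% of all genes in either direction), with 5 at an unadjusted p of 0.05 or less, against 28.6% of all genes. The methods' t-test gave 0 after adjustment and 1 at the threshold of the methods, where 0.965% of all genes were higher, while limma called 3 genes after adjustment with normexp and 2 with trended robust moderation, against 1.63% and 1.56% of all genes. At the threshold of the methods 4 genes were higher than under anti-PD-1, Clec9a, Wdfy4, Xcr1 and Flt3, where 2.4% of all genes were. Xcr1 enters this count by its fitted change, while its bound is 1.28-fold, and 2 genes were higher among probes well above background on all arrays, against 1.72% of all such genes. Flt3 was 1.58 higher (standard error 0.35, limma adjusted p = 0.0835), Wdfy4 1.40 higher (standard error 0.33, limma adjusted p = 0.0900) and Clec9a 2.14 higher (standard error 0.72, limma adjusted p = 0.148), and the median of the 10 genes was 0.82 against -0.13 over all genes. The slide layout limits these comparisons as well, since the arrays with antibody filled another row of the slide, and those with TP-16 other columns, than the arrays without, so that position and agent cannot be told apart.

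A departure from additivity, that is, the combination change minus the sum of the single changes on the log2 scale, was called for 0 of the 10 genes after adjustment in limma (0% of all genes), with 2 genes, Xcl1 and Tlr3, at an unadjusted p of 0.05 or less, against 7% of all genes. Xcl1 alone passed the threshold of the methods, with -1.46 (standard error 0.47, limma adjusted p = 0.587), where 0.487% of all genes were lower. The median departure of the 10 genes was -0.34 on the log2 scale, against -4.39e-05 over all genes, and -0.15 over the 7 genes well above background on all arrays. The count of genes past the threshold of the methods moved up without either vehicle array and down without TP-16 replicate 1 or combination replicate 2. Shares of all genes in those fits were not counted.

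The genes whose pattern over the 8 arrays was most like 3 of the members were found by Pearson correlation among about 18160 genes well above background on all arrays. The 3 nearest to Clec9a were Cabin1 (0.993), Naaa (0.989) and Dbnl (0.988), but both vehicle values of Clec9a were at background, so that these correlations rest in part on unmeasured levels. Flt3 was nearest to Slc44a2 (0.992), Ifitm10 (0.990) and Cxcr3 (0.986), the chemokine receptor of activated T cells. Xcl1 was nearest to Omd (0.980), Eef2k (0.966) and Me3 (0.964). Xcr1 was at background on 4 of the 8 arrays, and no nearest genes are given for it. How many genes exceeded 0.9 varied between the members, from 87 with Xcl1 to 445 with Clec9a and 620 with Flt3.

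Beyond the 10 genes, other markers of dendritic cells were described from lists. Of all tested genes 5.58% were called higher and 8.37% lower under the combination in limma, and each list count stands beside these shares. Of 11 tested further markers of type 1 dendritic cells, 5 rose and 0 fell under the combination, with a median change of 0.64 against -0.23 over all genes. They were Tlr11 (fitted change 3.01, limma adjusted p = 0.045), which senses profilin and was well above background on 1 of 2 vehicle arrays, with a change of 1.66 without vehicle replicate 1 (limma adjusted p = 0.0449), Naaa, a lysosomal amidase (2.07, limma adjusted p = 0.016), Itgae (1.80, limma adjusted p = 0.019), which encodes CD103, Gcsam (1.32, limma adjusted p = 0.031) and Clnk (1.13, limma adjusted p = 0.020). Gcsam was not well above background with vehicle and was at least 1.87-fold higher. Of the 9 tested markers of type 2 dendritic cells 4 rose, and the median was 1.15. They were Irf4 (at least 4.80-fold, not well above background with vehicle), Clec10a (2.08), Itgax (1.61), which encodes CD11c, and Sirpa (1.11). Itgam and Klf4 were the only ones that changed downward, by -0.73 and -0.12, and neither was called. Of the 11 tested markers of plasmacytoid dendritic cells 6 rose and 1 fell, with a median of 1.01. Klk1 rose by 2.44, Bcl11a was at least 3.63-fold higher, and Ccr9 and Klra17 rose by 2.09 and 2.07 (Klra17 by 1.30 and no longer called without vehicle replicate 1). The gene that fell was Cox6a2, with a change of -1.08 (limma adjusted p = 0.0108). Siglech, the surface lectin of these cells, changed by -0.73 (limma adjusted p = 0.104) and Ly6d by -0.91 (limma adjusted p = 0.778). Summed over the list, in units of the 75th percentile intensity of the array, the level of the further type 1 markers was 42.3 and 46.8 with vehicle and 62.5 and 68.2 with the combination. The type 2 markers summed to 91.1 and 110 with vehicle and 106 and 108 with the combination, and the plasmacytoid markers to 103 and 117 and to 119 and 120. Between vehicle and combination the summed level of the type 2 markers overlapped and that of the others did not, though the plasmacytoid sums of TP-16 (91.7 to 93.5) lay below vehicle and those of anti-PD-1 (122 to 130) above the combination. Without vehicle replicate 1, 2 of the further type 1 markers, 3 of the type 2 and 2 of the plasmacytoid markers were called higher, where 860 of all 21337 tested genes were. Without combination replicate 2 none of these were called after adjustment, as for all tested genes, and the counts at the unadjusted p and fold were 4, 3 and 3, against 5, 6 and 6 with all arrays. Of all 21337 tested genes 944 were higher at that threshold in the same fit, against 1425 with all arrays.

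Genes of dendritic cell maturation and control moved in part. Of 10 tested maturation genes 3 rose, with a median of 0.65, where 5.58% of all tested genes were called higher. They were Il4i1 (1.91), Ccr7 (1.82), the receptor that leads mature cells to lymph nodes, and Cd83 (1.12, limma adjusted p = 0.047). Without vehicle replicate 1 the change of Cd83 was 0.84, under the fold of 2. Cd40 changed by 1.64 (limma adjusted p = 0.084), or by 0.69 without vehicle replicate 1, and Fscn1 by -0.25. Of 13 dendritic cell transcription factors 6 rose, among them Irf4, Gfi1 (2.36), Ikzf1 (2.06) and Cebpa (1.48), which work in many blood cells, and the median was 1.28.

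Among genes that recruit dendritic cells or carry their signals, the chemokine Ccl5 rose most. Of 13 tested genes 6 rose and 0 fell, with a median of 1.71, where 5.58% of all tested genes were called higher. The chemokines Ccl5 and Ccl4 rose by 4.05 (limma adjusted p = 0.011) and 2.03, Cxcr3 rose by 2.99 and Il12rb1, a chain of the Il12 receptor, by 1.86.

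Among 19 tested genes of cross-presentation 5 rose and 1 fell, with a median of 0.99, where 5.58% of all tested genes were called higher and 8.37% lower. Cybb, the oxidase subunit that slows acidification of phagosomes, rose by 2.30, Rab27a (well above background on 1 of 2 vehicle arrays) by 1.82, the peptide transporter chain Tap2 by 1.64 (1.04 without vehicle replicate 1) and Rac2 by 1.53. Sec61b, a translocon subunit, and so used by every cell, fell by 1.06 (limma adjusted p = 0.011), or by 0.51 after quantile normalization, under the fold of 2. Of 11 genes downstream of or around Tlr3 3 rose, Unc93b1 (1.70), which carries endosomal receptors to their place, Irf7 (1.46) and Ikbke (1.36), while the adaptor Ticam1 changed by 0.22 (limma adjusted p = 0.501), or by -0.12 without vehicle replicate 1. Without vehicle replicate 1, 3 genes of cross-presentation, with a median of 0.59, and 1 gene around Tlr3 were called higher. The target of TP-16, Ptger4, rose by 1.77 (limma adjusted p = 0.014) and Pdcd1, which encodes PD-1, by 2.25 (limma adjusted p = 0.031), the latter by 1.41 without vehicle replicate 1.

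**Figure D4:**
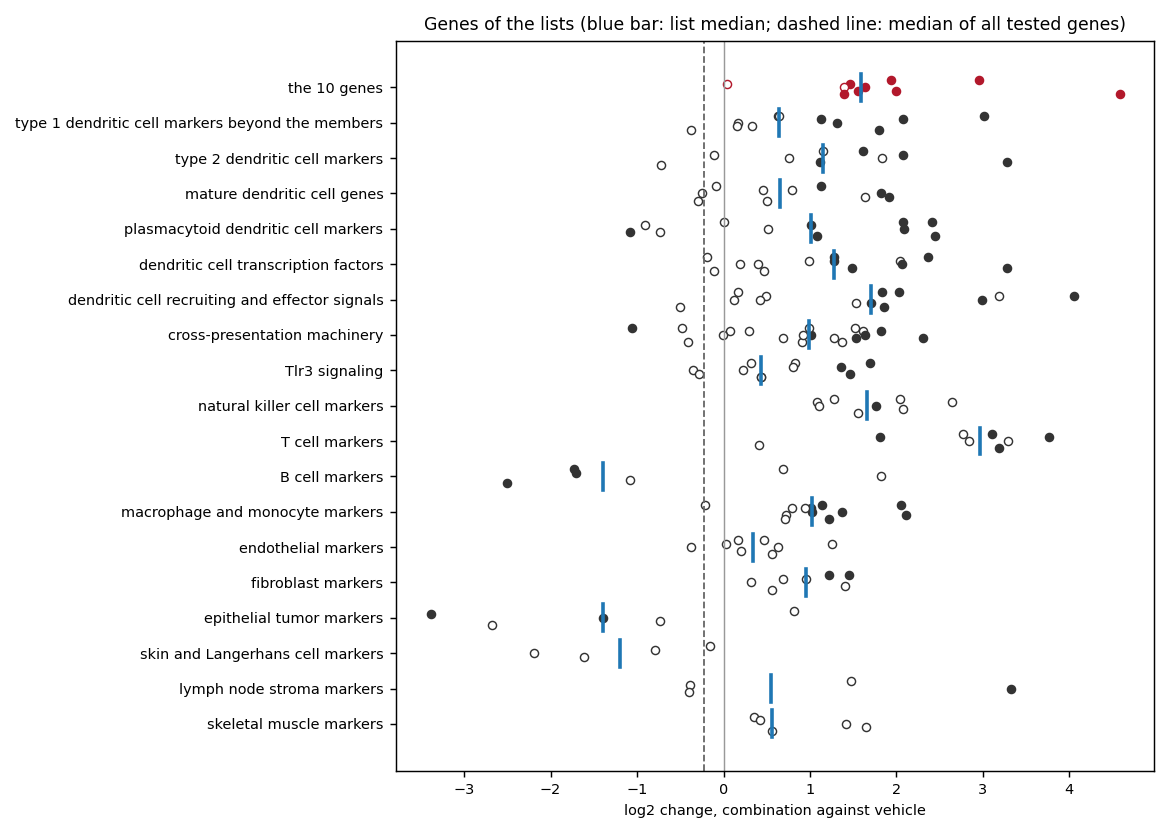
Log2 change between combination and vehicle (x axis) for each tested gene of the lists, 1 point per gene. Filled points passed adjusted p and a fold of 2, the blue bar is the median of each list and the dashed line the median of all tested genes (-0.23): the 10 genes have a median of 1.60, T cell markers 2.97, natural killer cell markers 1.66 and B cell markers -1.39.

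Markers of other cells moved with the 10 genes, and their part in the result was not tested. Their counts stand beside the 5.58% of all tested genes called higher under the combination. The level summed over the 8 T cell markers, in units of the 75th percentile intensity of the array, was 3.41 to 12.5 with vehicle, 17.8 to 22.4 with TP-16, 16.8 to 21.5 with anti-PD-1 and 27.0 to 45.6 with the combination, and 4 of the 8 rose under the combination, Cd8a by 3.76 (standard error 1.1, well above background on 1 of 2 vehicle arrays), Cd5 by 3.19, Cd6 by 3.10 and Cd3e by 1.81. Cd4 changed by 0.41. Natural killer cell markers, of cells that make Xcl1 and Flt3l, summed to 9.60 to 42.7 with vehicle, 42.7 to 44.3 with TP-16, 43.4 to 63.3 with anti-PD-1 and 48.8 to 51.5 with the combination, and 1 of 8 rose, Klrb1c by 1.77. Macrophage and monocyte markers summed to 199 to 342 with vehicle, 357 to 396 with TP-16, 409 to 472 with anti-PD-1 and 547 to 691 with the combination, and 7 of 12 rose, with Ly6c2 (2.11), Adgre1 (2.06), Fcgr1 (1.37) and Mertk (1.22) the largest. Some of these genes are also expressed by dendritic cells, and each sum is led by its brightest probes. Without vehicle replicate 1 the median change was 1.53 rather than 2.97 for the T cell markers and 0.83 rather than 1.66 for the natural killer cell markers. In that fit Cd8a rose by 1.96 and Ly6c2 by 1.22, and Fcgr1, with a change of 0.88, was no longer called.

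Among other cell types, the B cell and epithelial lists held genes that fell, and the fibroblast and lymph node stroma lists genes that rose. Of 6 tested B cell markers 3 fell, Ms4a1 by 2.50 (limma adjusted p = 0.014), and Pax5 (well above background on 1 of 2 combination arrays) by 1.72, and Cd79a was at least 2.27-fold lower, where 8.37% of all tested genes were called lower. After quantile normalization Cd79a changed by -0.95, under the fold of 2, and the level summed over the 6 markers was not lower, with 1.26 to 1.65 with vehicle and 1.60 to 1.93 with the combination. Of 5 tested epithelial markers 2 fell, Krt18 by 1.39 and Cdx2 at least 6.89-fold, while Epcam and Vil1 were untested, well above background on 1 and 0 arrays, in tumors of a colon carcinoma line. Of 7 fibroblast markers 2 rose, Col1a1 (1.45) and Pdgfra (1.23), and their sum was 226 to 250 with vehicle and 382 to 390 with the combination. Of 4 lymph node stroma markers 1 rose, Cxcl13 (3.33), with Madcam1 at background on all 8 arrays, where 5.58% of all tested genes were called higher. Of 8 endothelial markers 0 were called in limma (1, Tek, with an unadjusted p of 0.05 or less), with Tek highest at 1.26 and Egfl7 lowest at -0.37, and of 5 muscle markers 0 by either measure, with Myh4 highest at 1.65 and Acta1 lowest at 0.35, which became 0.73 and -0.23 without vehicle replicate 1. Skin markers were called for 0 of 4 genes in limma, likewise by either measure, and summed to 3.57 and 5.01 with vehicle, 2.40 and 27.7 with TP-16, 3.04 and 28.1 with anti-PD-1 and 2.10 to 2.41 with the combination. The high skin signal lay on replicate 2 of TP-16 and of anti-PD-1, and both combination arrays were among the lowest in skin signal. With all arrays 6 of the 8 natural killer cell markers were higher at the unadjusted p and fold, where 6.68% of all tested genes were. Without vehicle replicate 1 Klrb1c, with a change of 1.20, was no longer called. In that fit the median change was 0.77 rather than 1.02 for the macrophage and monocyte markers. It was -1.19 rather than -1.39 for the epithelial markers and -1.92 rather than -1.20 for the skin markers.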

How the data were processed

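Total RNA of CT26 tumors was labelled with Cy3 and read on 1-colour SurePrint G3 mouse arrays of Agilent. The authors deposited scanner output of Feature Extraction 10.7.1.1, whose processed intensities are background-subtracted and detrended. The authors also deposited log2 values normalized in GeneSpring by a method they do not name, and these correlated with log2 intensities at 0.995 to 1.00. The methods name TRIzol, the labels a column kit.

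Spots of a probe were averaged, and 270 probes were dropped for an outlier mark on any spot. A probe entered the test if 1 group or more had it well above background on each of its arrays. The 75th percentile intensity was 372 to 734, and the number of arrays limits the precision. limma 3.58.1 in R 4.3.3 fitted all 8 arrays with 1 mean per group and 4 residual degrees of freedom, which measures the spread between these samples only. The adjustment ran over all tested probes, and calculations were tested on simulated data. Where a group was not well above background, its fold is a bound.

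The genes named are the 10, both treatment targets, up to 4 called genes of each list with the largest change, and the nearest 3 by correlation to Xcr1, Clec9a, Xcl1 and Flt3 (those of Xcr1, at background on 4 arrays, are not given), and others named beside them were chosen after their values were seen. The 10 genes and the lists were chosen with earlier results of these data known. Promoters came from a RefSeq table of GRCm38.p6, in which all 10 were found, and probe positions are mm9. Alternatives covered scaling, background correction, filters, moderation, test, fold, replicate block and leaving out arrays. Keeping marked probes and the list counts without single arrays were chosen after seeing the data. The labels name TP-16 as BY001.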

Additional observations from a re-analysis of the deposited data

How the results depend on the processing

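Of 177 values of the 10 genes between combination and vehicle under alternatives, 174 kept their direction, 42 lost the adjusted call and 3 gained it. The 3 reversals were Xcr1 with normexp background correction (-0.12) and Flt3l without vehicle replicate 1 and without combination replicate 2 (range over single arrays left out -0.35 to 0.42). For TP-16, 0 genes were called after adjustment, where 0.0562% of all tested genes were. The count became 2 with quantile normalization (0.422% of all genes), 3 with normexp (1.82%) and 4 with trended robust moderation (1.13%). It was 1 among probes above background on all arrays (0.485% of such genes). With the authors' log2 values it was 2, with no share of all genes counted. Leaving out vehicle replicate 2 also raised it. At the threshold of the methods the 6 genes for TP-16 became 3 with normexp and with the methods' t-test, and the 4 for anti-PD-1 became 0 with either of these, 2 among probes above background on all arrays and 2 to 5 with an array left out. For the combination, the 8 genes called after adjustment became 5 without a filter on dim probes (2.98% of all genes higher). They became 0 in a fit of only the compared groups and 0 with the methods' t-test, where 0% of all genes were called in either. Leaving out either combination array also lowered this count. The 8 at the threshold of the methods became 4 with the t-test. Against TP-16, 1 gene passed at a fold of 1.5 and 0 to 1 with an array left out. The share of all genes at a fold of 1.5 was not counted, so that count cannot be set against all genes. Against anti-PD-1, 3 genes were called after adjustment with normexp and 2 with trended robust moderation, and the 4 at the threshold of the methods became 2 among probes above background on all arrays, 1 with the t-test and 2 to 4 with an array left out. Among fits with an array left out, shares of all genes were counted only for the combination against vehicle, without vehicle replicate 1 and without combination replicate 2. For the departure from additivity, 1 gene became 2 with quantile normalization, where 1.17% of all genes were lower, against 0.487% before. It also became 2 with the authors' values, and the count moved up or down with an array left out. The cause was not tested, beyond fewer arrays or probes in some fits. Deviations of same-numbered arrays correlated at -0.19 to 0.29, above 0.1 for 4 of 6 pairs of groups (0.29 for vehicle with combination) and below 0 for 2, so the numbers were not taken to pair the arrays. With the replicate block 7 genes were called for the combination (4.92% of all genes higher), Irf8 having an adjusted p of 0.0614 in limma, and no other call of the 10 genes changed. Xcr1, Zbtb46 and Clec9a were not well above background with vehicle, which limits their changes to bounds. All arrays lay on 1 slide, so a slide block was not run.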
